A study of Mus musculus with 16 samples.

Results

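The vitamin D receptor, its 2 retinoid X receptor partners, the enzymes that make and destroy its hormone, and the receptor for parathyroid hormone were followed in mouse bone by every probe set carrying their gene symbols. Of the 7 genes sought (Vdr, Cyp24a1, Cyp27b1, Rxra, Rxrb, Pth1r and Pthlh), 6 were represented, by 10 of the 45037 non-control probe sets, among 18193 genes with a probe set of their own. Pthlh was not analysed here. All 16 mice were ovariectomized C57BL/6 females, and the lowest 5 mm of each left femur gave the RNA for 1 Affymetrix array. The 4 groups of 4 mice were ERaKO mice, which lack estrogen receptor alpha in osteoclasts only, 4 hours after estrogen (ERaKO estrogen), ERaKO mice with vehicle, wild-type (WT) mice 4 hours after estrogen, and wild-type mice with vehicle. The vehicle of the ERaKO controls comes from the study's design description, since their own labels name none, and the sources used here give neither the estrogen compound and dose, nor the driver of the deletion, nor the age of the mice.

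Vitamin D acts in its hormonal form, calcitriol, through the vitamin D receptor, which binds DNA together with a retinoid X receptor. The enzyme encoded by Cyp27b1 makes calcitriol and the one encoded by Cyp24a1 breaks it down, and Cyp24a1 is itself among the most strongly calcitriol-induced genes. Parathyroid hormone and the related protein encoded by Pthlh share the receptor encoded by Pth1r, which signals through cyclic AMP and calcium in osteoblasts, osteocytes and growth plate chondrocytes, and in the growth plate this receptor works in a loop with Indian hedgehog.

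The promoters of Vdr, Pth1r and Rxra are given as the 250 bases before an annotated start (RefSeq, GRCm38.p6, read along the gene's strand). Vdr was the member that separated the replicate sets without overlap, by probe set 1418175_at, and Pth1r had a spread in parallel with cartilage markers. Rxra had groups that crossed over between the genotypes by probe set 1454773_at, without a call. Capitals mark the letters matched on either strand by a search for paired vitamin D half-sites (2 copies of AGGTCA or 2 of GGTTCA, in one orientation with 3 bases between), each such half-site alone, the estrogen response element (GGTCA and TGACC with 3 bases between), the cyclic AMP element TGACGTCA and its shorter core TGACG, and the GC box GGGCGG. A single half-site lies inside each paired site, TGACG lies inside TGACGTCA, and the estrogen element can share letters with AGGTCA.
Vdr (chr15:97908297-97908546, minus strand): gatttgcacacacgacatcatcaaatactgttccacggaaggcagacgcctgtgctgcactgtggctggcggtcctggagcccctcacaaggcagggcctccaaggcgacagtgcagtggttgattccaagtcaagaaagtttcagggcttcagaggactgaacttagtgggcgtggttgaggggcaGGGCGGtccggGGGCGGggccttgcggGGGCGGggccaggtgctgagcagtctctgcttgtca
Pth1r, upstream start (chr9:110747146-110747395, minus strand): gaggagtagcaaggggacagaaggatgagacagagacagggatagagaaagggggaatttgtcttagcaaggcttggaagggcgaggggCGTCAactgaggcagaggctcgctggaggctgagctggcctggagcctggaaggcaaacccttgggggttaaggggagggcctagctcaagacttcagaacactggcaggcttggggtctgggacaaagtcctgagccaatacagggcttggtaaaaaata
Pth1r, downstream start (chr9:110742611-110742860, minus strand): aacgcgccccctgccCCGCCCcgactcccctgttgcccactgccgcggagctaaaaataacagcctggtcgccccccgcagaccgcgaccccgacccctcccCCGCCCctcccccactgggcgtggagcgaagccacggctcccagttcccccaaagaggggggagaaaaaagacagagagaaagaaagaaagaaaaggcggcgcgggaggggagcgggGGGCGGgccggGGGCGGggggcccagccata
Rxra, downstream start (chr2:27709042-27709291, plus strand): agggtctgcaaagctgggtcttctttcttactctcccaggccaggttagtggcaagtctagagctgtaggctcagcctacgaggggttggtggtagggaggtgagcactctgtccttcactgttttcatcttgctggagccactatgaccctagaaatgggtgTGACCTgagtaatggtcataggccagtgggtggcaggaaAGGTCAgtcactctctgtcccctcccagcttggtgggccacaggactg

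The Vdr window held 3 GC boxes, whose first bases lay 63, 52 and 36 bases before the start. A GC box was present in 32.7% of 32851 RefSeq promoter windows of the same length. The upstream Pth1r window held 1 TGACG, found in 17.8% of windows, and the downstream one held 4 GC boxes. The Rxra window held 2 AGGTCA half-sites, one on each strand and 87 and 48 bases before the start, a half-site found in 14% of windows. The windows not printed differed: the other Rxra start had 3 GC boxes and no half-site, and the middle Pth1r start had 1 GC box and no TGACG. None of the 4 windows held a paired vitamin D site, which 0.00609% of windows held for each spelling, or the estrogen element, which 0.0639% held. A match is a run of letters and not a measured binding site.

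Signals are deposited intensities on a linear scale, and differences are on the scale log2(signal + 16), as estimates from limma with their standard errors and with p-values adjusted by the Benjamini-Hochberg method over all 45037 probe sets. A probe set is called changed at an adjusted p under 0.05. Of the 10 member probe sets, 7 had a mean signal above 77.0, the 30th percentile of all probe sets. Cyp27b1 lay just below it, at a mean of 75.7, and the dimmer Cyp24a1 and dimmest Rxra probe sets lay below it too, at 52.3 and 16.8. Levels are compared between mice for one probe set at a time and never between probe sets.

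The arrays had been scaled alike, with a 2% trimmed mean of 500 on each. Between mice numbered 3 and 4 and mice numbered 1 and 2, in a fit over all groups, 11.2% of all probe sets were called, whereas 0% to 0.00222% were called in the 7 comparisons of genotype and treatment. The labels do not say what the numbers stand for. The summed signal of 6 osteoclast markers was 39119 to 60188 in replicates 3 and 4, against 18678 to 36780 in replicates 1 and 2, and that of 6 skeletal muscle markers was 2192 to 21449, against 48817 to 420353. No marker of bone, cartilage, marrow, muscle or fat was at 0 on any array. In such bulk RNA, fewer cells of a type and less RNA per cell cannot be told apart. Esr1, the deleted gene, ranged over 409 to 753 in ERaKO femurs and 434 to 1100 in WT femurs by its brightest probe set, ranges that overlapped, as they did for its other probe sets. In 3 arrays, ERaKO estrogen replicate 1, WT estrogen replicate 2 and WT vehicle replicate 2, the spike-in signal was raised and the ratio of 3' to 5' beta-actin signal was 2.07 to 3.53.

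Vdr, the nuclear receptor for calcitriol, was higher in replicates 3 and 4 than in replicates 1 and 2 of every group, and was not called for estrogen or genotype. By probe set 1418175_at its signal was 1405 and 1082 in replicates 3 and 4 of the ERaKO estrogen group, and 343 and 694 in its replicates 1 and 2. The ERaKO vehicle group had 901 and 983, against 475 and 513. The WT estrogen group had 1436 and 931, against 732 and 384, and the WT vehicle group had 921 and 776, against 268 and 310. Every mouse numbered 3 or 4 was above every mouse numbered 1 or 2, a separation that 1.14% of all probe sets showed in this direction. The signal averaged 1054 ± 242 in replicates 3 and 4 and 465 ± 173 in replicates 1 and 2 (SD, n = 8 each). The difference was 1.20 ± 0.16 on the log2 scale, a fold of 2.30 (limma adjusted p = 0.000152), and it was 0.91 or more within each of the 4 groups. A two-sided exact permutation within the groups gave p = 0.00154, the smallest its 1296 arrangements allow.

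The second Vdr probe set, 1418176_at, differed between the replicate sets in the same direction but was not called. It read 781 ± 198 in replicates 3 and 4 and 567 ± 60.2 in replicates 1 and 2 (SD, n = 8 each), a difference of 0.42 ± 0.14 (limma adjusted p = 0.0690). The sets overlapped, since WT estrogen replicate 4 read 531. Without that array the difference was 0.52 and was called, at an adjusted p of 0.0182. Over the 23 alternatives that gave a value it ran from 0.34 to 0.52, with limma adjusted p of 0.0182 to 0.181. Within the replicate sets the 2 Vdr probe sets ran together over the 8 mice with r = 0.77 in replicates 3 and 4 and 0.45 in replicates 1 and 2. Osteoclast and skeletal muscle markers moved with the same split, as given above, and their part in the Vdr difference was not tested.

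**Figure D1:**
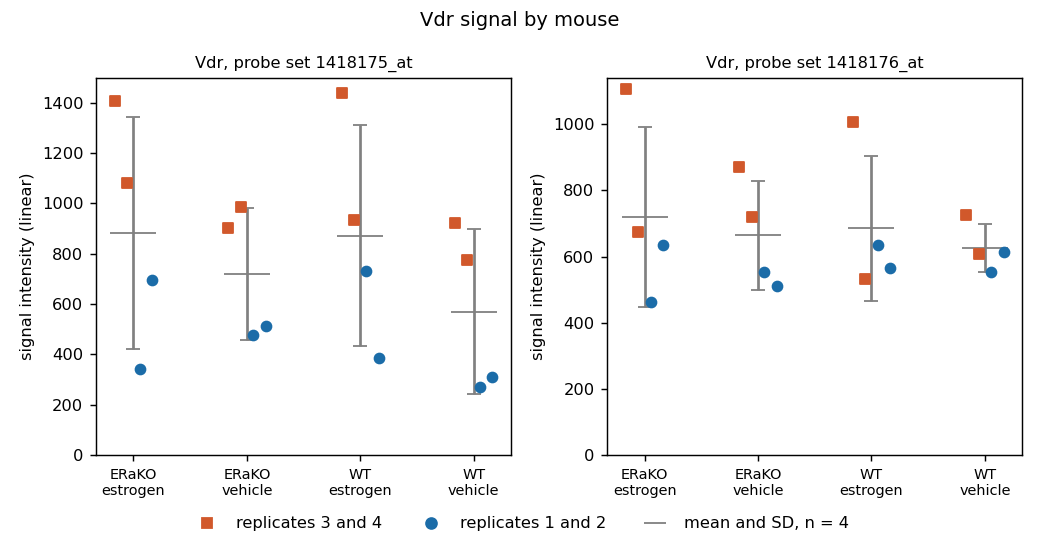
Linear signal intensity of the 2 Vdr probe sets in each mouse of the 4 groups, with squares for replicates 3 and 4, circles for replicates 1 and 2, and grey lines for the group mean and SD (n = 4). In the first panel all squares lie above all circles, whereas in the second the square at 531 lies among the circles.

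Against vehicle, estrogen gave no call for Vdr in either genotype. By 1418175_at the ERaKO means were 881 with estrogen and 718 with vehicle, and the WT means were 871 and 569. In WT mice both estrogen-treated mice exceeded both vehicle mice within each replicate set, an order that 3.13% of all probe sets showed. The WT difference was 0.64 ± 0.47, with a 95% interval of -0.34 to 1.63 (limma adjusted p = 0.910). This error includes the difference between the replicate sets, which a fit of group means does not separate. Over 28 alternatives the WT difference ran from 0.25 to 0.98, with an unadjusted limma p under 0.05 in 2 and an adjusted p of 0.424 or above. In replicates 3 and 4 alone it was 0.45, in replicates 1 and 2 alone 0.84, and the exact permutation within the sets gave p = 0.0556, the smallest its 36 arrangements allow. The ERaKO difference was 0.19 ± 0.47, and the difference between the 2 responses was -0.46 ± 0.66 (limma adjusted p = 0.969). The second probe set gave 0.07 in ERaKO mice and 0.09 in WT mice, both with a standard error of 0.25. The order of the group means by 1418175_at was ERaKO estrogen, WT estrogen, ERaKO vehicle and WT vehicle, and neighbours differed by less than the SD of either group over its 4 mice, a spread that includes the difference between the replicate sets.

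Cyp24a1, the hydroxylase that degrades calcitriol, was called lower in replicates 3 and 4 by 1 of its 2 probe sets. Probe set 1418867_at read 19.0 and 110 in ERaKO estrogen replicates 3 and 4, against 205 and 196 in replicates 1 and 2. The ERaKO vehicle group had 21.5 and 103, against 174 and 60.8. The WT estrogen group had 43.3 and 136, against 138 and 394, and the WT vehicle group had 10.5 and 71.2, against 221 and 134. The mouse numbered 3 was the lowest of its group in all 4 groups, whereas the sets as a whole overlapped. The signal averaged 64.2 ± 47.6 in replicates 3 and 4 and 190 ± 96.9 in replicates 1 and 2 (SD, n = 8 each). The difference was -1.49 ± 0.38 (limma adjusted p = 0.0181), and every group had it in the same direction, from -0.86 to -1.97. Its size depends on the offset, since the mean of replicates 3 and 4 lies below the 30th percentile of 77.0: it was -1.85 with an offset of 1 and -0.99 with an offset of 64, called with either. Without the 3 arrays of raised spike-in signal it was -1.33 and was no longer called (adjusted p = 0.114).

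The dimmer Cyp24a1 probe set, 1418866_at, gave 0.29 ± 0.25 in the opposite direction between the replicate sets (limma adjusted p = 0.513), and the probe sets of this gene had an r of -0.04 over the 8 mice of replicates 3 and 4 and 0.15 over those of replicates 1 and 2. Between genotypes after estrogen it read 70.3, 27.8, 34.2 and 14.5 in ERaKO mice and 58.9, 121, 49.0 and 80.7 in WT mice. The 2 groups overlapped through the ERaKO mouse at 70.3. The difference was -0.87 ± 0.36 with an unadjusted p of 0.0263 and an adjusted p of 1.00 by limma. Estrogen against vehicle gave 0.42 ± 0.74 in ERaKO mice and 0.70 ± 0.74 in WT mice by the brighter probe set, and -0.31 ± 0.36 and 0.49 ± 0.36 by the dimmer one, none of them called. By the brighter probe set the group means ran 178 in WT estrogen, 133 in ERaKO estrogen, 109 in WT vehicle and 89.9 in ERaKO vehicle mice, with ranges that overlapped over both replicate sets together.

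Cyp27b1, the hydroxylase that makes calcitriol, had a single dim probe set, at 33.8 to 172 over the 16 mice. Its means were 69.8 ± 19.1 in ERaKO estrogen, 71.2 ± 22.4 in ERaKO vehicle, 74.6 ± 18.9 in WT estrogen and 87.3 ± 65.8 in WT vehicle mice (SD, n = 4 each). Estrogen minus vehicle was -0.02 ± 0.41 in ERaKO mice and 0.02 ± 0.41 in WT mice. The WT value averages opposite differences. In replicates 3 and 4 the WT estrogen mice had 58.7 and 98.9, against 33.8 and 37.1 with vehicle (0.85), and in replicates 1 and 2 they had 80.1 and 60.7, against 172 and 106 (-0.82). The estrogen and vehicle mice did not overlap within either set, with 2 mice against 2 in each. The share of all probe sets with such opposite orders was not counted. Over all groups the replicate sets differed by -0.44 ± 0.28 (limma adjusted p = 0.336).

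**Figure D2:**
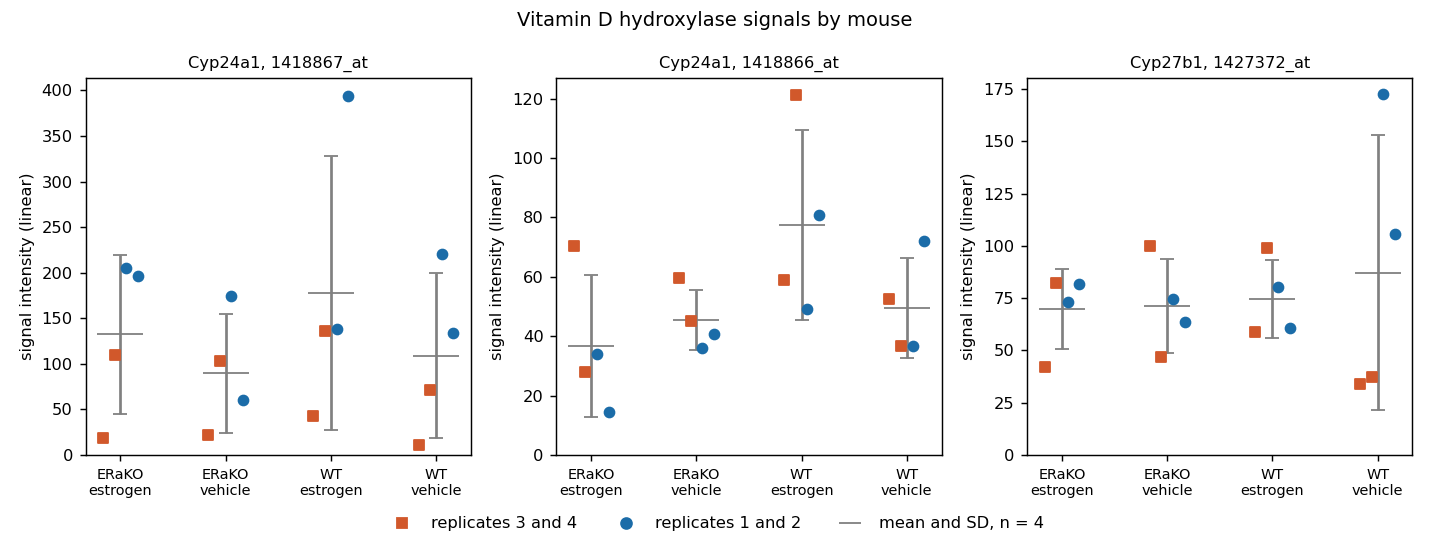
Linear signal intensity of the Cyp24a1 and Cyp27b1 probe sets in each mouse, with squares for replicates 3 and 4, circles for replicates 1 and 2, and grey lines for the group mean and SD (n = 4). In the first panel each group's lowest point is a square, between 10.5 and 43.3, and in the third it is also a square, between 33.8 and 58.7, whereas in the second the lowest point is a square in WT vehicle mice and a circle in the other groups.

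Rxra, which encodes a retinoid X receptor that pairs with the vitamin D receptor, had estrogen differences of opposite sign in the 2 genotypes by probe set 1454773_at, none of them called. ERaKO estrogen mice had 678, 430, 521 and 395 in replicates 1 to 4, against 430, 267, 419 and 393 in ERaKO vehicle mice. WT estrogen mice had 359, 279, 447 and 293, against 429, 565, 592 and 519 in WT vehicle mice. Of the WT estrogen mice, 3 lay below all WT vehicle mice, and the fourth, at 447, lay just above the vehicle mouse at 429. Of the ERaKO estrogen mice, 3 lay above all ERaKO vehicle mice, the lowest of these only just (429.7 against 429.5). The fourth, at 395, lay among the ERaKO vehicle mice. Within each replicate set both WT estrogen mice were below both WT vehicle mice, an order that 3.97% of all probe sets showed.

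The WT difference was -0.60 ± 0.22 (fold 0.659), with an unadjusted limma p of 0.0124 and an adjusted p of 0.674, and the exact permutation gave p = 0.0571. The ERaKO difference was 0.40 ± 0.22 (unadjusted p = 0.0806). Between genotypes, ERaKO minus WT was 0.53 ± 0.22 after estrogen (unadjusted p = 0.0257) and -0.48 ± 0.22 under vehicle (unadjusted p = 0.0412), and neither passed the adjustment. The 2 responses differed by 1.00 ± 0.31, a fold of 2.00, with an unadjusted limma p of 0.00427 and an adjusted p of 0.927. Replicates 3 and 4 alone gave 0.75 for it and replicates 1 and 2 alone 1.26. The order of the group means was WT vehicle (526), ERaKO estrogen (506), ERaKO vehicle (377) and WT estrogen (345), and the ranges of neighbours, over both replicate sets, overlapped. A two-sided exact permutation of the treatments within the genotypes gave p = 0.00531 over 4900 arrangements, and within the replicate sets as well p = 0.00463 over 1296, before any adjustment for the number of probe sets. An unadjusted p under 0.05 for a higher ERaKO response was reached by 3.06% of all probe sets.

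Probe set 1425762_a_at had the same signs with wider errors, at 0.14 ± 0.37 in ERaKO mice and -0.31 ± 0.37 in WT mice. Its difference between responses was 0.44 ± 0.52, with a 95% interval of -0.65 to 1.54, and was -0.12 in replicates 3 and 4 alone and 1.01 in replicates 1 and 2 alone. The dimmest Rxra probe set gave -0.42 ± 0.44 for that difference. Probe set 1454773_at correlated with 1425762_a_at at r = 0.44 in replicates 3 and 4 and 0.01 in replicates 1 and 2 (n = 8 each). Markers of several cell types moved with the same contrast, none of them called. A higher response in ERaKO than in WT mice was seen in 6 of 6 skeletal muscle markers (median difference 2.13), 4 of 4 adipocyte markers (0.77), 5 of 5 osteoblast markers (0.19) and 4 of 5 osteocyte markers (0.26). It was lower in 4 of 6 neutrophil markers (median -0.66), 2 of them at an unadjusted p under 0.05, which 5.34% of all probe sets reached in either direction. Their part in the Rxra difference was not tested. The summed signal of the muscle markers was 2192 to 420353 in ERaKO estrogen, 4413 to 94070 in ERaKO vehicle, 5914 to 126176 in WT estrogen and 10565 to 305053 in WT vehicle mice. Over the mice of a set, the signal of 1454773_at correlated with the muscle sum at r = 0.65 in replicates 3 and 4 (rho 0.86) and 0.67 in replicates 1 and 2 (rho 0.64), with exact permutation p of 0.0782 and 0.0699 for r and 0.664 for both after adjustment over 200 such relations.

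Rxrb, the other retinoid X receptor gene, ranged over 1008 to 1880 and was not called in any comparison. It averaged 1240 ± 157 in ERaKO estrogen, 1370 ± 62.0 in ERaKO vehicle, 1556 ± 260.2 in WT estrogen and 1348 ± 172 in WT vehicle mice (SD, n = 4 each). The order ran WT estrogen, ERaKO vehicle, WT vehicle and ERaKO estrogen, and the ranges of neighbours, over both replicate sets, overlapped. The ends of that order, ERaKO against WT after estrogen, differed by -0.32 ± 0.15 with an unadjusted limma p of 0.0492 and an adjusted p of 1.00. It was -0.07 in replicates 3 and 4 alone and -0.56 in replicates 1 and 2 alone. Estrogen minus vehicle was -0.15 ± 0.15 in ERaKO mice and 0.20 ± 0.15 in WT mice, and the replicate sets differed by -0.08 ± 0.10.

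**Figure D3:**
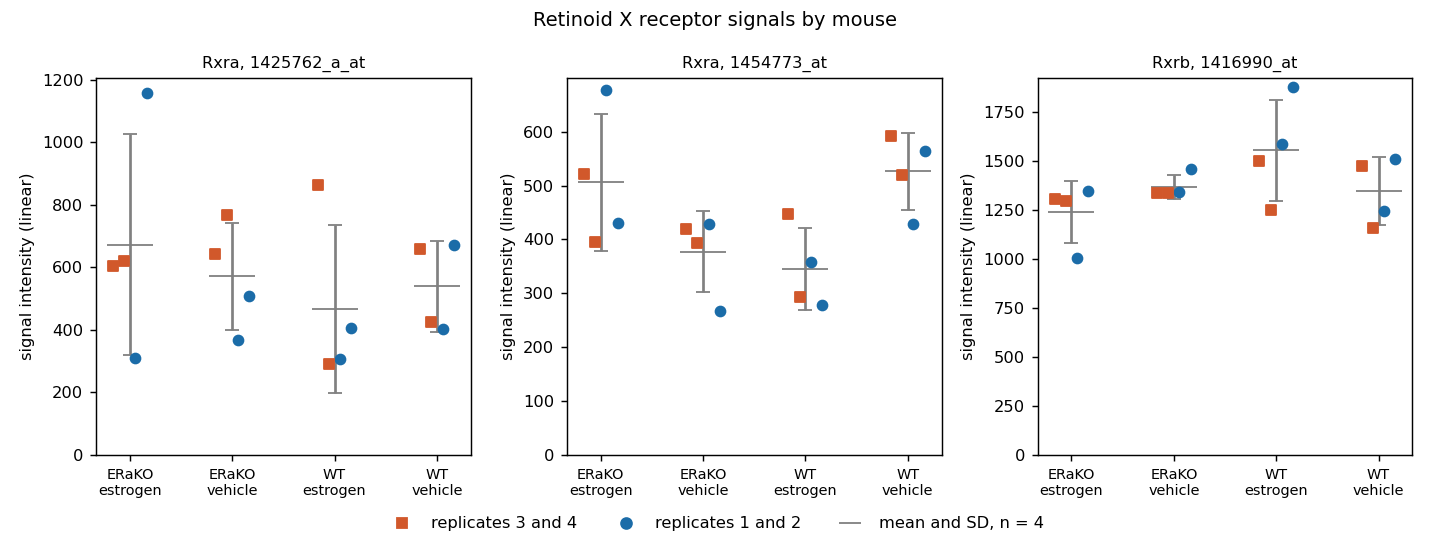
Linear signal intensity of the 2 brighter Rxra probe sets and of Rxrb in each mouse, with squares for replicates 3 and 4, circles for replicates 1 and 2, and grey lines for the group mean and SD (n = 4). In the middle panel the ERaKO mean is higher with estrogen and the WT mean is higher with vehicle, and in the right panel all points lie between 1008 and 1880.

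Pth1r, the receptor for parathyroid hormone and parathyroid hormone-related protein, ranged over 1430 to 5090 without a call in any comparison. It read 5090, 2369, 1430 and 3719 in ERaKO estrogen replicates 3, 4, 1 and 2, against 3298, 2913, 2917 and 2247 in ERaKO vehicle mice. WT estrogen mice had 1873, 2048, 2496 and 1446, against 4572, 4215, 1950 and 2011 in WT vehicle mice. The WT estrogen mice were all at 2496 or below, while the WT vehicle group split into a high pair, numbered 3 and 4, and a low pair, numbered 1 and 2, that overlapped the estrogen group. The WT difference was -0.61 ± 0.34, with a 95% interval of -1.32 to 0.11 (limma adjusted p = 0.850). In replicates 3 and 4 alone it was -1.16, against -0.06 in replicates 1 and 2 alone. The order of the group means was WT vehicle (3187), ERaKO estrogen (3152), ERaKO vehicle (2843) and WT estrogen (1966), and the ranges of neighbours, over both replicate sets, overlapped. In ERaKO mice the difference was 0.01 ± 0.34, and the responses differed by 0.62 ± 0.48 (limma adjusted p = 0.939).

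Cartilage markers moved with Pth1r. The summed signal of 6 chondrocyte markers was 16413 and 24607 in WT estrogen replicates 3 and 4, against 55304 and 58103 in WT vehicle replicates 3 and 4, while in replicates 1 and 2 it was 15301 to 25044, against 14535 to 15214. Over the 8 mice of a set, log2 Pth1r and the log2 chondrocyte sum correlated with r = 0.92 (rho 0.83) in replicates 3 and 4 and r = 0.91 (rho 0.86) in replicates 1 and 2. The exact permutation p of r was 0.00325 and 0.00203, and 0.246 for both after adjustment over the 200 relations computed between member probe sets and marker lists. The p of rho was 0.0154 and 0.0107, and 0.508 for both after that adjustment. Without the 2 mice farthest from the median of the chondrocyte sum, r was 0.92 and 0.90. The part of cartilage in the Pth1r differences was not tested. Between replicate sets Pth1r differed by 0.51 ± 0.20 (limma adjusted p = 0.116), higher in replicates 3 and 4 of all 4 groups. This difference was called when WT estrogen replicate 1 was left out (0.63, adjusted p = 0.0489) or ERaKO estrogen replicate 2 was left out (0.63, adjusted p = 0.0450). Over the 24 alternatives that gave a value it ran from 0.25 to 0.63, with limma adjusted p of 0.0450 to 0.531.

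**Figure D4:**
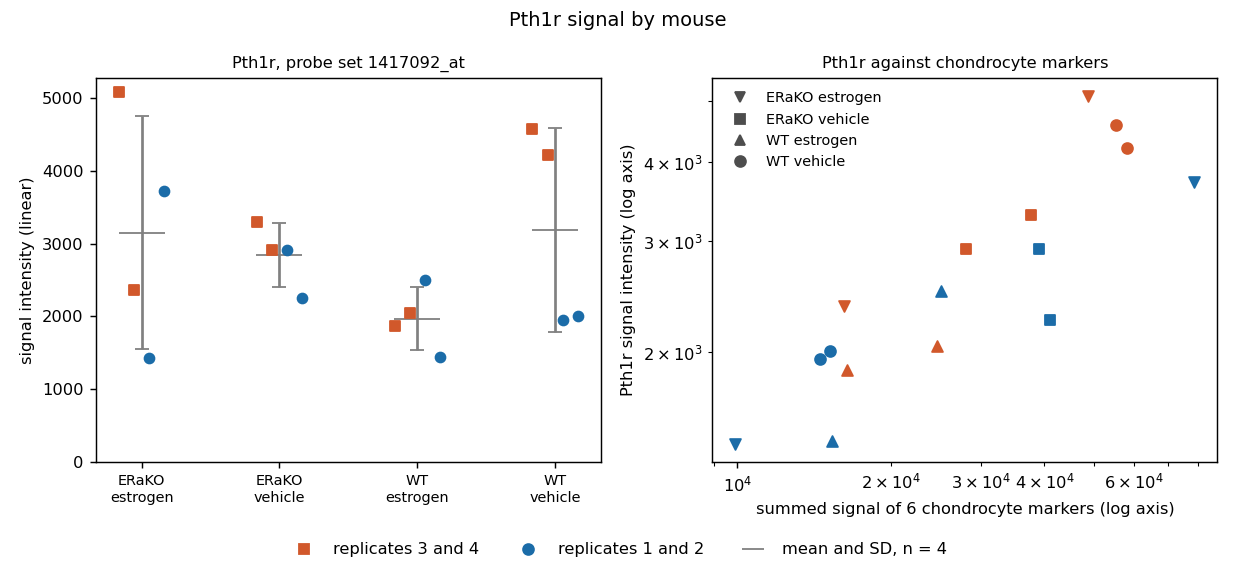
Left, linear signal intensity of Pth1r in each mouse of the 4 groups, with the group mean and SD (n = 4). Right, Pth1r signal against the summed signal of 6 chondrocyte markers, both on log axes, with shape for the group and colour for the replicate set, where the points rise together from 9909 to 78754 on the marker axis.

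Genes whose signals followed each member most closely over the 16 arrays, once the mean of each replicate set was removed, were picked by Pearson's r. For Pth1r they were Mmp14, a membrane-bound matrix metalloproteinase (r = 0.97), Smpd3, a neutral sphingomyelinase (0.95), and Alpl, the alkaline phosphatase of osteoblasts and hypertrophic cartilage (0.93). These 3 held at 0.92 or more within either replicate set. For Vdr, by its brighter probe set, they were Ddit4, an inhibitor of mTOR signalling induced by stress and glucocorticoids (0.85), Ppp1r8 (0.84) and Tomm40, a subunit of the mitochondrial import pore (0.83). For Cyp24a1, by its brighter probe set, which did not run with the dimmer one, they were Fam151a (0.90), Clic6 (0.77) and the mitochondrial folate enzyme gene Mthfd2 (0.77). For Rxra, by its brightest probe set, they were the RNA-editing enzyme gene Adarb1 (0.78), B4galt1 (0.77) and Cyp2c70 (0.76). For Rxrb they were Ikzf1, a lymphoid transcription factor (0.90), Cd37, a leukocyte tetraspanin (0.88), and Mogat2 (0.86). All of these were weaker in replicates 3 and 4, at 0.64, 0.51 and 0.14, against 0.95, 0.94 and 0.97 in replicates 1 and 2. These values are the highest among the genes measured above the 30th percentile and describe the arrays, with no test.

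In all 7 comparisons of genotype and treatment, 0 of the 10 member probe sets were called, against 0% of all probe sets in 6 of them and 0.00222% for estrogen averaged over the genotypes. At an unadjusted p under 0.05 there were 0 for estrogen in ERaKO mice (3.73% of all probe sets), 1 for estrogen in WT mice (6.14%), 3 for ERaKO against WT after estrogen (4.92%), 1 under vehicle (3.58%), 1 for the difference between responses (5.34%) and 0 for either average (4.65% for estrogen and 3.24% for genotype). The median log2 difference of the members was 0.04 for estrogen in ERaKO mice and 0.12 in WT mice, beside 0.02 and -0.02 over all probe sets. Between the replicate sets 2 of 10 were called, 1 in each direction, beside 11.2% of all probe sets, and 4 of 10 had an unadjusted p under 0.05, beside 26.1%.

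**Figure D5:**
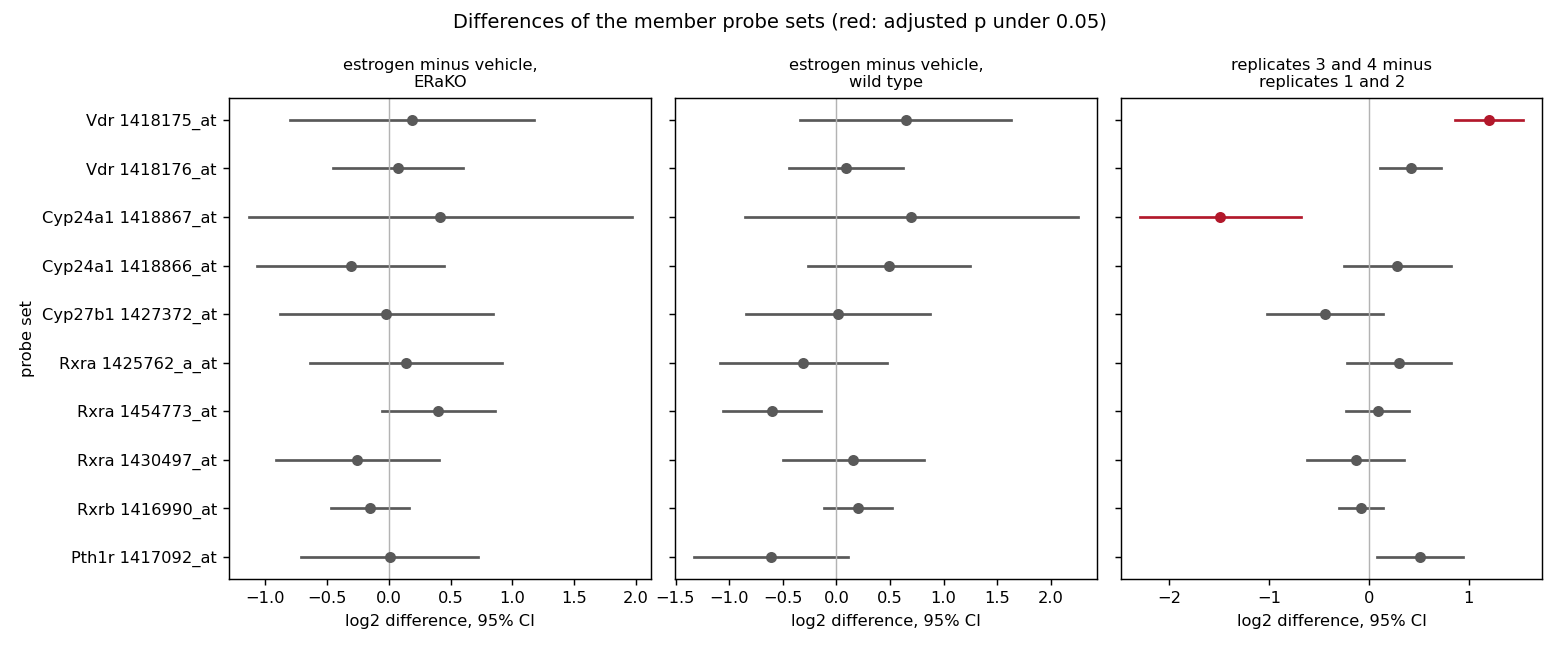
Log2 differences of the 10 member probe sets with 95% confidence intervals for estrogen minus vehicle in ERaKO mice, estrogen minus vehicle in WT mice, and replicates 3 and 4 minus replicates 1 and 2. The 2 red intervals in the right panel, Vdr 1418175_at at 1.20 and Cyp24a1 1418867_at at -1.49, are the called ones.

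The genes around the receptors gave 0 calls in the 7 comparisons of genotype and treatment. Of the proteins that supply vitamin D or act with its receptor, 12 of 15 listed genes were measured, and for estrogen in WT mice 5 were higher and 7 lower, with a median of -0.07. The smallest p-values there belonged to the vitamin D uptake receptor gene Lrp2 (-0.31 ± 0.24), the coactivator gene Ncoa3 (0.20 ± 0.17) and Pdia3 (0.39 ± 0.36). Of the vitamin D target genes 12 of 16 were measured, 6 higher and 6 lower, led by the Wnt coreceptor gene Lrp5 (0.95 ± 0.57), the plasma membrane calcium pump gene Atp2b1 (-0.26 ± 0.19) and Igfbp3 (0.48 ± 0.37). Of the genes that carry the parathyroid hormone receptor's signal 17 of 19 were measured, 7 higher and 10 lower. Rgs2, which shortens G protein signals, had 1837 ± 228 with estrogen and 3002 ± 820 with vehicle in ERaKO mice and 1956 ± 794 and 3279 ± 1384 in WT mice (SD, n = 4 each). Its differences were -0.67 ± 0.30 in ERaKO mice and -0.73 ± 0.30 in WT mice (limma adjusted p = 1.00 and 0.739), followed in WT mice by the G protein gene Gna11 (-0.29 ± 0.16) and the calcium-sensing receptor gene Casr (-0.57 ± 0.32).

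Among parathyroid hormone target genes, 15 of 16 were measured, and for estrogen in WT mice 5 were higher and 10 lower. Igf1, a growth factor of bone and cartilage, had 702 ± 237 in WT estrogen mice and 1940 ± 700 in WT vehicle mice (SD, n = 4 each), without overlap. The difference was -1.45 ± 0.31 with an unadjusted limma p of 0.000169 and an adjusted p of 0.372. Nr4a2, an orphan nuclear receptor gene, gave -0.74 ± 0.21, also without overlap, which 1.71% of all probe sets showed in this direction, and Efnb2 gave -0.37 ± 0.24. In the growth plate loop of parathyroid hormone-related protein and hedgehog, 13 of 14 genes were measured. For estrogen in WT mice 2 were higher and 11 lower, with a median of -0.52, beside -0.02 for all probe sets, and in ERaKO mice 10 were higher and 3 lower, with a median of 0.06. The ligand gene Ihh had -0.86 ± 0.29 in WT mice and the transcription factor genes Gli3 and Gli1 had -0.63 ± 0.25 and -0.65 ± 0.26, with adjusted p of 0.622 to 0.737 by limma. Chondrocyte markers, which share Col10a1 with the loop's list, had 5 of 6 lower in ERaKO mice (median -0.71) and 6 of 6 lower in WT mice (-0.50). They had the loop's sign in WT mice and not in ERaKO mice. Skeletal muscle markers had 6 of 6 higher in ERaKO mice (median 1.13) and 6 of 6 lower in WT mice (-0.97), and adipocyte markers had 3 of 4 higher (0.20) and 4 of 4 lower (-0.82). None of these markers was called, and their part in the loop's differences was not tested.

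Between the replicate sets, 11 of the 68 measured genes of these lists were called by their brightest probe sets, beside 12% of all 18193 genes taken the same way. Higher in replicates 3 and 4 were Adcy3, an adenylyl cyclase that makes cyclic AMP (0.74 ± 0.10), Col10a1, the collagen of hypertrophic cartilage (2.94 ± 0.63), and Wnt4 (0.46 ± 0.11). Lower were Pde4d, a phosphodiesterase that degrades cyclic AMP (-1.49 ± 0.19), Rgs2 (-0.73 ± 0.11), the orphan receptor gene Nr4a1 (-0.84 ± 0.15), Igf1 (-0.65 ± 0.15), the hedgehog-binding protein gene Hhip (-1.18 ± 0.34), the transcription factor gene Mef2c (-0.56 ± 0.17), the sodium-calcium exchanger gene Slc8a1 (-1.22 ± 0.37) and Snw1, a coactivator of the vitamin D receptor (-0.35 ± 0.10). Their limma adjusted p-values ran up to 0.0440. Adcy3 and Pde4d separated the sets without overlap, as 1.14% of all probe sets did upward and 1.07% downward. By list these were 0 higher and 1 lower of 12 for vitamin D supply and partners, 0 and 1 of 12 for vitamin D targets, 1 and 2 of 17 for receptor signalling, 1 and 2 of 15 for parathyroid hormone targets and 1 and 2 of 13 for the growth plate loop. The bone-resorption ligand gene Tnfsf11, a target of both hormones, gave 0.46 ± 0.21 and was not called (adjusted p = 0.167), nor were Lrp5 (0.79 ± 0.36), Baz1b (0.40 ± 0.14) and Pdia3 (0.57 ± 0.21). All 6 skeletal muscle markers and 3 of 4 adipocyte markers were called lower and 5 of 6 osteoclast markers higher in this contrast, and 18S ribosomal signal was 842 to 9158 in replicates 3 and 4, against 15614 to 30651 in replicates 1 and 2.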

How the data were processed

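Total RNA of the distal femur of 16 mice, unpooled, was hybridized to 1 array per mouse. Each deposited value is one probe set's intensity on a linear scale, and GCOS is the software that the submitters' processing notes name (version: not given). Scaling to a 2% trimmed mean of 500 was seen in the values, which were not normalized further.

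The array held 45101 probe sets, 64 of them controls. The annotation gave 1 symbol for 34945 of the others and several for 932, and 34741 matched RefSeq by Entrez identifier. Limma 3.58.1 in R 4.3.3 was fitted to log2(intensity + 16) of the 45037 others with 1 mean per group, 12 residual degrees of freedom and a variance trend, and the replicate-set contrast had group and set as terms. The offset makes log2 folds of dim probe sets too small. Single probe sets were also compared by exact permutation of mean log2 values, over 70 arrangements of 4 against 4 mice, whose smallest p is 0.0286, and over 36 within the replicate sets. The limma fit was tested on simulated data, for estrogen in WT mice only. Those data had independent noise on each array and no difference between replicate sets, unlike the arrays studied here.

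The members, gene lists, markers and the split into replicate sets were chosen with earlier results of these data known. Lists were represented by each gene's brightest probe set. Named from each list were the 3 genes of smallest p in each comparison described and any called, and for each member above the 30th percentile the 3 genes of highest correlation. The p-values measure the spread between mice. For limma in the comparisons of genotype and treatment, that spread includes the difference between the replicate sets. The number of arrays limits the precision of the p-values.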

Additional observations from a re-analysis of the deposited data

Results flagged for a closer look

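Rxra, probe set 1454773_at, was flagged for the ERaKO minus the WT response to estrogen, at 1.00 ± 0.31 (limma adjusted p = 0.927, n = 4 mice a group). An exact permutation of this difference gave p = 0.00531, unadjusted for the number of probe sets. It shuffled the treatments within each genotype, which supposes no estrogen effect in either, so it does not test equal responses alone. The difference kept its sign under all 27 alternatives that gave a value, at 0.73 to 1.26, and the other Rxra probe sets gave 0.44 and -0.42.

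Rxrb had 1 mouse far from the other 3 in each ERaKO group. ERaKO estrogen replicate 1 had a signal of 1008, against 1297 to 1350 in the rest of its group, and it was one of the 3 arrays of raised spike-in signal. ERaKO vehicle replicate 2 had 1463, against 1336 to 1342. These were 2 of 40 groups examined by Dixon's criterion at 0.829, and chance flags about 1 in 20 groups.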

How the results depend on the processing

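The analysis was repeated under 28 alternatives: other offsets, quantile normalization, filters on dim probe sets, no variance trend, array weights, the replicate number or set as a term, either set alone, no arrays of raised spike-in signal, and each array left out in turn. Of 220 counts of called member probe sets, 219 were within 1.5 times the reported count. Most of the 220 were counts of 0 in the 7 comparisons of genotype and treatment. Almost no probe set of the array was called there, so those counts had little room to move. The exception was the replicate-set contrast without the 3 arrays of raised spike-in signal, with 1 call and not 2, where fewer arrays were fitted and Cyp24a1 1418867_at was at -1.33 (adjusted p = 0.114). Leaving out single arrays gave 0 calls in each genotype and treatment comparison and 2 to 3 between the replicate sets. Over all probe sets, counts moved by over 1.5 times as follows. Estrogen averaged over genotypes had 1 call as reported, 2 with 1 probe set a gene, the replicate block, the set as a term or without WT vehicle replicate 2, 3 with array weights or in replicates 3 and 4 alone, 4 without the 3 arrays and 0 in replicates 1 and 2 alone. From 0 as reported, estrogen in ERaKO mice had 2 with array weights and 1 without the 3 arrays or without ERaKO estrogen replicate 1, estrogen in WT mice had 3 with the set as a term, the difference between responses had 4 in replicates 1 and 2 alone, and genotype averaged had 1 with array weights, with the set as a term, or without ERaKO vehicle replicate 4 or ERaKO estrogen replicate 1. The replicate-set contrast had 5030 as reported, 2364 with 1 probe set a gene (fewer tested), 2487 without the 3 arrays and 3157 without WT vehicle replicate 3. For the members, the replicate block gave 0 calls in each of the 7 comparisons, with Pth1r for estrogen in WT mice at -0.61 (adjusted p = 0.631), and it ended or added no call of a member. Same-numbered mice of different groups were compared by correlating their deviations from the group means (24 pairs). Over all probe sets the correlation was 0.0389 to 0.336 (median 0.156), not all above the 0.1 set for pairing. Over 1 probe set a gene without the lowest 30% it was 0.190 to 0.603 (median 0.324), all above it. Whether that threshold was met thus depended on the probe sets used. Matching mouse 1 with mouse 2, or 3 with 4, across groups gave medians of 0.195 and 0.369. With either choice of probe sets, same-numbered mice therefore had no higher median correlation than differently numbered mice within a set. Over all probe sets, 6 of 16 arrays correlated best with one of their own number. Of 2136 values of single members 155 changed sign, 0 of them after a call. Among those that moved most, Pth1r for estrogen in WT mice was -1.16 in replicates 3 and 4 and -0.06 in replicates 1 and 2, and the cause was not tested. Vdr 1418175_at stayed called between the replicate sets under all 24 alternatives that gave a value, at 0.98 to 1.30, and array weights added a call for Vdr 1418176_at (0.45, adjusted p = 0.0256). The difference of Cyp24a1 1418867_at between the replicate sets ran from -1.85 with an offset of 1 to -0.99 with an offset of 64.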

Other observations

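Parathyroid hormone target genes and the growth plate loop had mostly higher responses to estrogen in ERaKO than in WT mice, with 0 genes called by limma. Of 15 target genes 12 had a higher ERaKO response, with a median difference of 0.48, beside 0.03 for all probe sets. In this direction 1 of the 15 had an unadjusted limma p under 0.05, as 3.06% of all probe sets did. The smallest p-values belonged to Igf1 (1.21 ± 0.43), the cytokine gene Lif (1.05 ± 0.50) and Efnb2 (0.67 ± 0.34), each with an adjusted p of 0.927 or above. Of 13 genes of the growth plate loop 11 had a higher ERaKO response, with a median of 0.44. In this direction 4 of the 13 had an unadjusted p under 0.05, beside the same 3.06% of all probe sets. That share includes dim probe sets, whereas the listed genes were taken by their brightest ones, for which the share was not counted. Among the 4 genes were Mef2c (1.12 ± 0.44), Hhip (2.03 ± 0.88) and Ihh (0.87 ± 0.40). In the same contrast 3 of 6 chondrocyte markers were higher (median -0.06), as were 6 of 6 skeletal muscle (2.13), 4 of 4 adipocyte (0.77), 5 of 5 osteoblast (0.19) and 4 of 5 osteocyte markers (0.26), and 4 of 6 neutrophil markers were lower (-0.66). Their part in these differences was not tested.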
